A study of Mus musculus with 12 samples.

Results

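The smooth muscle and myofibroblast contractile genes Acta2, Tagln, Cnn1, Myh11, Myl9, Actg2, Tpm1, Tpm2, Lmod1 and Des were followed across the 4 groups of an RNA-seq experiment in primary mouse embryonic fibroblasts (MEFs). These 10 genes were taken by mouse gene symbol from the 37991 Ensembl gene identifiers counted, and all 10 were among the 15327 genes that passed the filter on low counts. The MEFs came from FVB embryos of day 13.5 and were used at passage 3 in 5% oxygen. Wild-type MEFs were compared with E2f1 3KR/3KR MEFs (3KR), in which a germ-line knock-in replaces the 3 acetylated lysines of the transcription factor E2F1 with arginine in every cell. Cells of each genotype were left untreated or given the radiomimetic drug neocarzinostatin (NCS), which breaks DNA, at 250 ng/ml for 3 h. Each group held 3 samples. The embryos behind the numbered samples are not described, so p-values measure the spread between these samples, which may be technical.

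Contractile genes encode the filaments with which smooth muscle and activated fibroblasts pull on their surroundings. Smooth muscle actins polymerise into thin filaments, tropomyosins lie along them, and myosin II slides on them when its regulatory light chain is phosphorylated. In cultured fibroblasts many of these genes are switched on by serum response factor (SRF) together with myocardin-related coactivators, which enter the nucleus when actin polymerises, and by TGF-beta acting through Smad proteins. A fibroblast with actin stress fibres rich in the ACTA2 protein is called a myofibroblast, the cell of wound contraction and scarring.

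Between 33203757 and 45279321 reads were counted per sample, and the spread between replicates corresponded to a biological coefficient of variation of 3.95%. Both wild-type samples numbered 3 stood apart from the other wild-type samples: the SD of log2 differences between genes was 0.125 to 0.152 in pairs with them and 0.0823 to 0.0866 in the other wild-type pairs. Results that rest on them are given with and without them. E2f1 itself was counted at 1042 to 1296 (normalised read count) over all samples, which does not check the labels because the knock-in changes codons and not the gene's dose. Xist lay at 30590 to 35630 in the 3KR samples and at 32.3 to 62.5 in wild-type samples, and the Y-linked gene Ddx3y had the opposite pattern (5370 to 5822 in wild-type, 7.001 to 16.2 in 3KR). Sex and genotype therefore cannot be told apart in any comparison of 3KR with wild-type MEFs below. NCS raised the p53 target Cdkn1a by 1.18 (log2) in wild-type and 1.34 in 3KR MEFs, and the difference of these responses is given further down. The level of Cdkn1a was lower in 3KR than in wild-type MEFs, both untreated (log2 fold change -0.83) and after NCS (-0.67).

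Fibroblast identity was checked with 11 markers, all of which were detected. Their summed level was 36400 to 37400 CPM (counts scaled to the library total) in wild-type and 42800 to 44900 in 3KR samples. Col1a1 and Col1a2 made up most of this sum. Of the 11 in untreated cells, 9 were higher and 1 lower in 3KR, beside 22.1% and 23.6% of all genes tested. Pdgfra was at 123 to 128 CPM in untreated wild-type and 405 to 406 in untreated 3KR samples, and Vim at 3900 to 3910 and 3510 to 3590. Markers of pericytes and vascular smooth muscle, which also make contractile proteins, summed to 722 to 765 CPM in wild-type and 507 to 533 in 3KR samples. Most of that sum came from Cspg4 and Mcam, and single markers went both ways. Of 9 tested in untreated cells, 3 were lower and 3 higher in 3KR, beside 23.6% and 22.1% of all genes tested. The higher ones were Notch3 (21.5 to 24.2 CPM in wild-type, 34.3 to 34.7 in 3KR), Ndufa4l2 (11.4 to 13.2 and 29.3 to 30.9) and Cacna1h (7.0 to 8.53 and 15.3 to 17.7). In the same list Higd1b and Pln were at or under 3 counts in every sample and Kcnj8 did not exceed 0.516 CPM. Striated muscle markers summed to 32.9 to 36.8 CPM in wild-type and 25.6 to 30.4 in 3KR samples, with Ckm, Myf5, Chrng, Tnnc1 and Tnnc2 at or under 3 counts in every sample. Schwann cell and neural crest markers were at 234 to 252 CPM in wild-type and 46.2 to 55.1 in 3KR samples, and macrophage markers at 112 to 137 and 199 to 228. In bulk RNA, fewer cells of a type and less RNA per cell cannot be told apart. The part of these marker differences in the results below was not tested.

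As levels per exon length, the 10 genes ranged widely in untreated wild-type MEFs. Acta2 (smooth muscle alpha-actin, chr19:34241090-34255590 in GRCm38, minus strand) was the highest at 1951 ± 23.3 RPKM (reads per exon length and library total, mean ± SD, n = 3). Tagln (transgelin or SM22, an actin-bundling protein) followed at 1309 ± 94.5 RPKM and Myl9 (the regulatory light chain of smooth muscle myosin) at 437 ± 5.12. Actg2 (smooth muscle gamma-actin) and Tpm1 (tropomyosin 1) came next at 293 ± 8.69 and 287 ± 3.89 RPKM. The ranges of these neighbours overlapped, but Actg2 lay above Tpm1 within each sample (299.83 and 289.48, 296.91 and 288.62, 283.54 and 282.36). This small difference was not tested. Lower levels were found for Tpm2 (tropomyosin 2, 191 ± 5.54 RPKM), Cnn1 (calponin 1, an actin-binding inhibitor of myosin ATPase, 112 ± 3.18) and Des (desmin, an intermediate filament of muscle, 32.4 ± 0.538). Lmod1 (leiomodin 1, an actin nucleator of smooth muscle) at 12.4 ± 0.529 and Myh11 (smooth muscle myosin heavy chain) at 3.43 ± 0.182 RPKM closed the order. By this measure the heavy chain gene of smooth muscle myosin was the lowest of the 10 genes and the light chain gene Myl9 among the 3 highest. The length used is that of all annotated exons joined, 1162 bases for Myl9 and 6485 for Tpm1. As a share of counted reads in untreated wild-type MEFs, Tpm1 (0.186%) lay above Myl9 (0.0508%), so the order depends on this length.

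In untreated 3KR MEFs the order of levels per exon length differed at 2 places. Actg2, at 164 ± 3.37 RPKM, lay below Tpm1 at 240 ± 0.922, and Des, at 11.3 ± 0.399, lay below Lmod1 at 13.8 ± 0.404, with no overlap of samples in either pair. Acta2 alone made up 39.1% to 40.7% of all reads on the 10 genes in wild-type and 41.9% to 42.7% in 3KR samples. As a share of all counted reads, the 10 genes together took 1.04% to 1.10% in untreated wild-type, 1.03% to 1.07% in NCS-treated wild-type, 0.857% to 0.858% in untreated 3KR and 0.910% to 0.915% in NCS-treated 3KR samples.

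**Figure D1:**
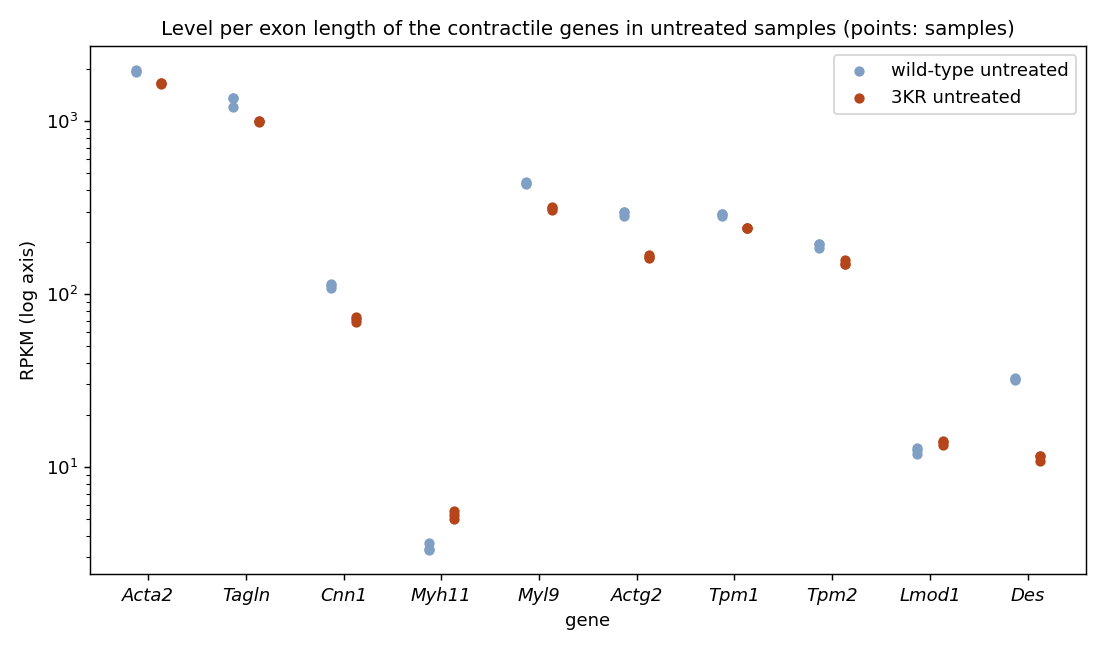
Level per exon length (RPKM, log axis) of the 10 contractile genes in the untreated samples; each point is 1 sample, 3 of wild-type and 3 of 3KR MEFs per gene. Acta2 lies near 1951 RPKM in wild-type MEFs and Myh11 near 3.43, and Des falls from 32.4 in wild-type to 11.3 in 3KR MEFs.

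Sequence shared with other genes was scarce, and overlap with genes on the other strand was largest in Tagln. Of all 50-base words in the annotated transcripts, 0.326% of those of Acta2 were shared with another gene (the cytoplasmic actin Actg1 and 5 genes with names of pseudogenes or predicted genes) and 0.34% of those of Myh11 were shared with Myh9 and Myh10, the heavy chains of non-muscle myosin. No such word of the other 8 genes was shared, the tropomyosins and Actg2 included. Tagln (chr9:45929619-45936058) overlaps 2 genes on the opposite strand. Of its 1988 exonic bases, 1241 are also exonic in the antisense gene Gm48529, which is absent from the gene identifiers counted, so it has no level here. Another 108 are exonic in Pcsk7, whose normalised read count was 1648 to 1765 in all samples. Des (chr1:75360329-75368579) shares 220 exonic bases with the antisense gene Gm15179, which reached at most 1.01 normalised reads. The library kit keeps strand, but the strand setting of the counting is not given in the sources used here.

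CArG boxes, the sites through which SRF is known to bind contractile promoters, are shown because SRF is part of the control described above. RefSeq promoter windows (GRCm38.p6, 250 bases before to 50 after the gene start) were at hand for 7 of the 10 genes: Acta2, Cnn1, Myl9, Tpm1, Tpm2, Lmod1 and Des. Both strands were searched for the CArG box, and also for CArG boxes with G or C at exactly 1 of the central A or T positions. Myl9 held 1 exact box and Acta2 and Myl9 held boxes that were 1 base off, printed here with distances from the RefSeq start, which lies at 34255373 for Acta2 and 156775464 for Myl9 and differs from the gene ends of GENCODE (34255590 for Acta2 and 156775420 for Myl9). They are given along the gene's strand with 10 bases on each side and the box in capitals.
Acta2, chr19:34255438-34255467, minus strand, box from 84 bases before the start, 1 base off: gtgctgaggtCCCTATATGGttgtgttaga
Acta2, chr19:34255388-34255417, minus strand, box from 34 bases before the start, 1 base off: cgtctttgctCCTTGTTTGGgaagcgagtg
Myl9, chr2:156775293-156775322, plus strand, box from 161 bases before the start, exact: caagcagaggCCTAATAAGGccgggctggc
Myl9, chr2:156775355-156775384, plus strand, box from 99 bases before the start, 1 base off: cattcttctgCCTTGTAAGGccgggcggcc

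Among all 32851 promoter windows of the same length, 1.63% held an exact CArG box and 9.98% held an exact box or one that was 1 base off, against 1 and 2 of the 7 contractile promoters. The windows of Cnn1, Tpm1, Tpm2, Lmod1 and Des held neither kind. The TEAD motif GGAATG was found, on either strand, in the windows of Acta2, Tpm1 and Lmod1 and in 14.7% of all windows. The Smad motif CAGAC was found in those of Acta2, Cnn1 and Des and in 49.6% of all windows. The E-box CANNTG, which reads the same on both strands, was in all 7 windows and in 72.3% of all windows. None of these motifs overlaps a printed CArG box. A match is a description of letters in this window.

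Contractile genes were mostly lower in untreated 3KR than in untreated wild-type MEFs. Of the 10, 8 were lower and 2 (Myh11 and Lmod1) were higher at a false discovery rate (FDR) under 0.05 by the edgeR quasi-likelihood test. Over all genes tested, 45.7% were called in this comparison, 23.6% lower and 22.1% higher, so a call by itself was common. The median log2 fold change of the 10 genes was -0.38, and that of all genes tested was -0.00036. Their samples did not overlap between the genotypes in any of the 10 genes, which was also so for 53.5% of all genes tested.

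Des showed the largest difference. Its normalised read counts (counts divided by DESeq2 size factors) were 4478, 4569 and 4702 in untreated wild-type and 1523, 1627 and 1618 in untreated 3KR MEFs. Every 3KR sample lay far below every wild-type sample, and the log2 fold change was -1.53 ± 0.0378 (SE, FDR 7.04e-20), a ratio of 0.346. After NCS the values were 4711, 4584 and 4529 in wild-type and 1535, 1559.95 and 1603 in 3KR MEFs, with a log2 fold change between genotypes of -1.56 ± 0.0381 (FDR 8.69e-20). Desmin is also a protein of striated muscle, of whose 14 markers tested 5 were lower and 0 higher in untreated 3KR MEFs (edgeR), and of pericytes, of whose 9 markers tested 3 were lower and 3 higher. Of all genes tested, 45.7% were called in this comparison, 23.6% lower and 22.1% higher. The part of these cell types in the Des difference was not tested. The striated marker with the highest level, Acta1, was at 16.6 to 19.7 CPM in wild-type and 11.6 to 15.8 in 3KR samples, while Myod1 did not exceed 0.243 CPM in any sample.

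The actins of smooth muscle both fell, to unequal extents. Actg2 was counted at 17512, 17359.9 and 16822 in untreated wild-type and at 9550.4, 9413 and 9758 in untreated 3KR MEFs, for a log2 fold change of -0.85 ± 0.0315 (FDR 1.53e-16). Acta2 was counted at 162910, 160207 and 161786 in untreated wild-type and at 137021, 135314 and 136509 in untreated 3KR MEFs. Its groups were separated by many times their SD of 1358 and 876, although the log2 fold change was only -0.25 ± 0.0188 (FDR 8.18e-11). For Acta2 the 95% interval ran from -0.291 to -0.213 and for Actg2 from -0.919 to -0.788.

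Cnn1 and Tagln, which encode actin-binding proteins, and the myosin light chain gene Myl9 were lower in 3KR MEFs too. Cnn1 was counted at 11640, 11730 and 11293 in untreated wild-type and at 7311, 7600.3 and 7018 in untreated 3KR MEFs, for a log2 fold change of -0.67 ± 0.0328 (FDR 3.67e-14). Tagln was counted at 101268, 102191 and 90896 in untreated wild-type and at 73483, 74649.8 and 74609.9 in untreated 3KR MEFs. Wild-type sample 3 was the lowest wild-type sample for Tagln, in both treatments, and still lay above all 3KR samples. The log2 fold change of Tagln was -0.41 ± 0.038 (FDR 4e-09). Myl9 lay at 19069 to 19275 in wild-type and 13282 to 13808 in 3KR MEFs, for a log2 fold change of -0.50 ± 0.0332 (FDR 8.57e-12).

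Both tropomyosins were among the genes with smaller differences. Tpm1 was counted at 70421, 70287 and 69771 in untreated wild-type and at 58467, 58511 and 57961 in untreated 3KR MEFs, for a log2 fold change of -0.27 ± 0.0212 (FDR 1.65e-10). Tpm2 lay at 20508 to 21286 in wild-type and at 16134 to 17183 in 3KR MEFs, for a log2 fold change of -0.36 ± 0.0387 (FDR 5.44e-08).

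Myh11 was higher in 3KR MEFs, unlike the light chain gene Myl9 and the other 7 genes that fell. It was counted at 939, 958 and 1053 in untreated wild-type and at 1578, 1504 and 1424 in untreated 3KR MEFs, for a log2 fold change of 0.61 ± 0.0557 (FDR 3.16e-09), a ratio of 1.52. After NCS its counts were 1038, 964 and 931 in wild-type and 1479, 1503 and 1419.6 in 3KR MEFs, for a log2 fold change of 0.58 ± 0.0563 (FDR 7.81e-09). Every 3KR sample lay above every wild-type sample in both conditions.

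Lmod1 was higher by a small margin that depended on single samples. Its counts were 1749, 1901 and 1892 in untreated wild-type and 2061, 1982 and 2087 in untreated 3KR MEFs. The groups did not overlap, and the log2 fold change was 0.14 ± 0.0449 (FDR 0.0124). Without untreated wild-type sample 1 the value was 0.10 (FDR 0.0943), and without untreated 3KR sample 3 it was 0.13 (FDR 0.0577). After NCS the log2 fold change of Lmod1 was 0.10 ± 0.0452 and did not pass the test (FDR 0.0626), with a 95% interval from 0.0109 to 0.198. It passed there without wild-type NCS sample 2 (0.15, FDR 0.0192), with at least 10 counts in every sample (0.11, FDR 0.038) and with only the samples compared (0.11, FDR 0.0484), so that all 10 genes were called under these settings.

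**Figure D2:**
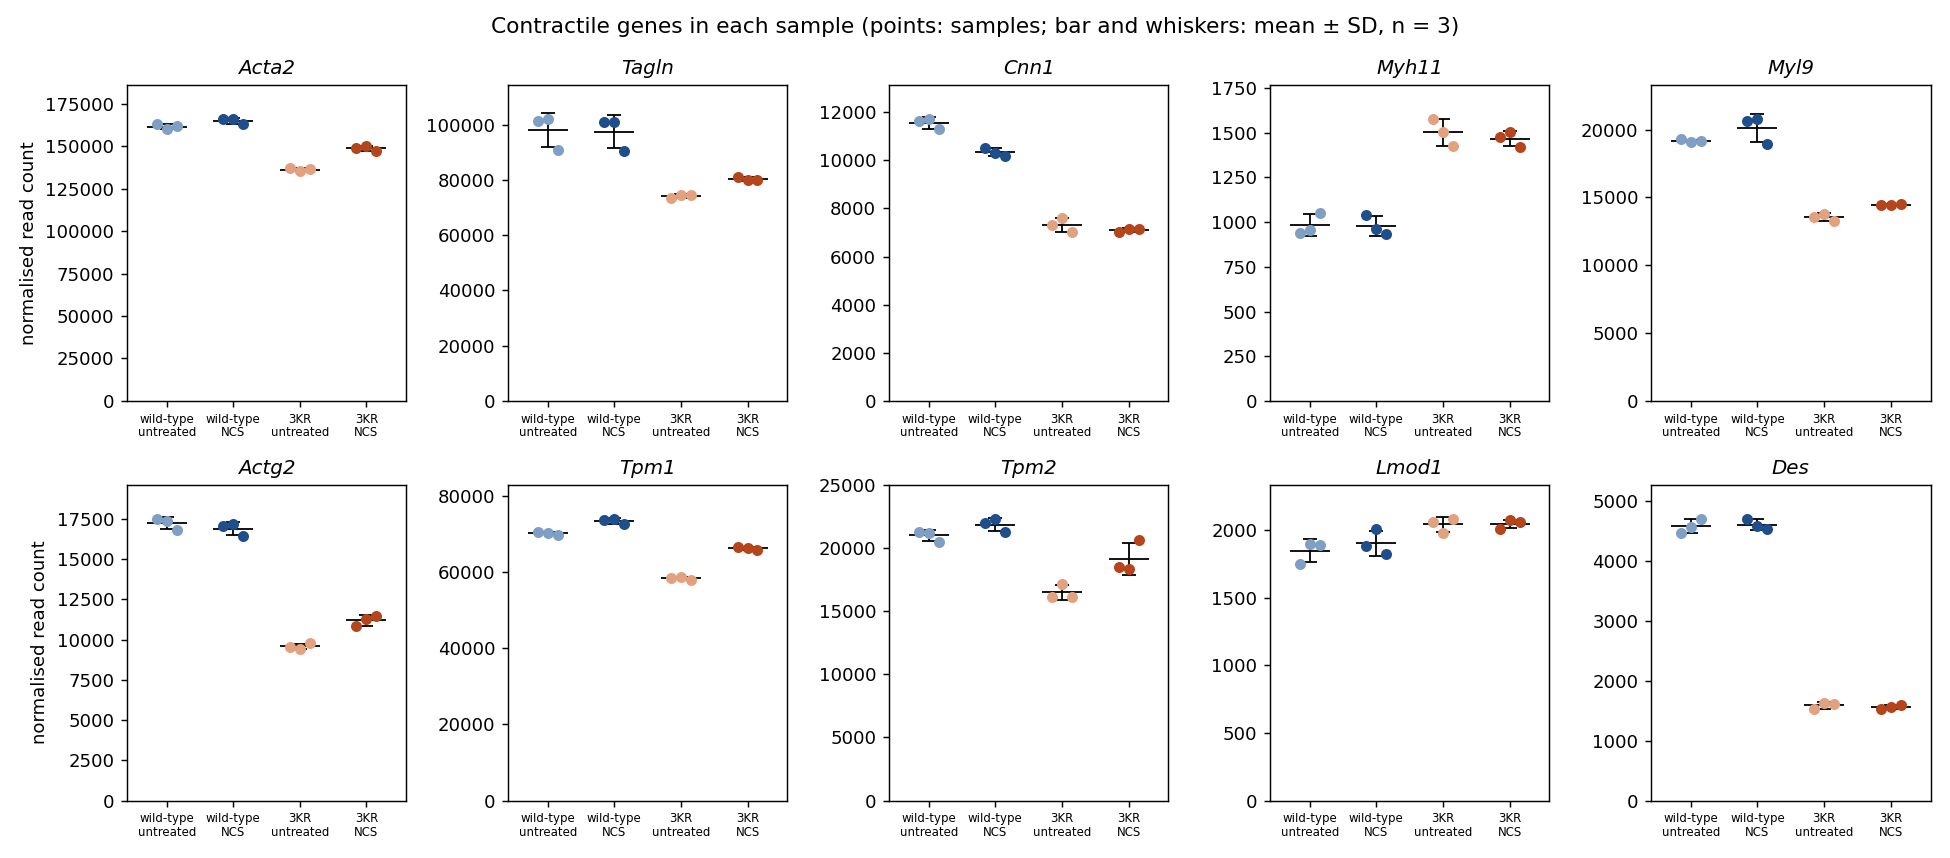
Normalised read count of each contractile gene in each of the 12 samples; points are samples, the bar and whiskers are the mean ± SD (n = 3 per group), and each axis starts at 0. In Des the 3KR samples sit between 1523 and 1627 and the wild-type samples between 4478 and 4711, while in Myh11 the 3KR samples lie above the wild-type samples.

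After NCS, 8 of the 10 genes were again lower in 3KR than in wild-type MEFs and Myh11 was higher, beside 46.5% of all genes called in this comparison (23.6% lower, 22.9% higher). The groups did not overlap in any of the 10 genes, as in 54.3% of all genes tested. The median log2 fold change of the 10 genes was -0.24, against 0.0037 for all genes. The log2 fold changes were -0.15 ± 0.0188 for Acta2, -0.28 ± 0.0379 for Tagln, -0.59 ± 0.0314 for Actg2 and -0.19 ± 0.0386 for Tpm2. Those of Cnn1, Myl9 and Tpm1 were -0.54 ± 0.0329, -0.48 ± 0.0332 and -0.15 ± 0.0211. Values closer to 0 than in untreated cells were thus seen for all of these 7 genes. Whether such a difference was larger than the spread is the question of the comparison of NCS responses given further down.

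**Figure D3:**
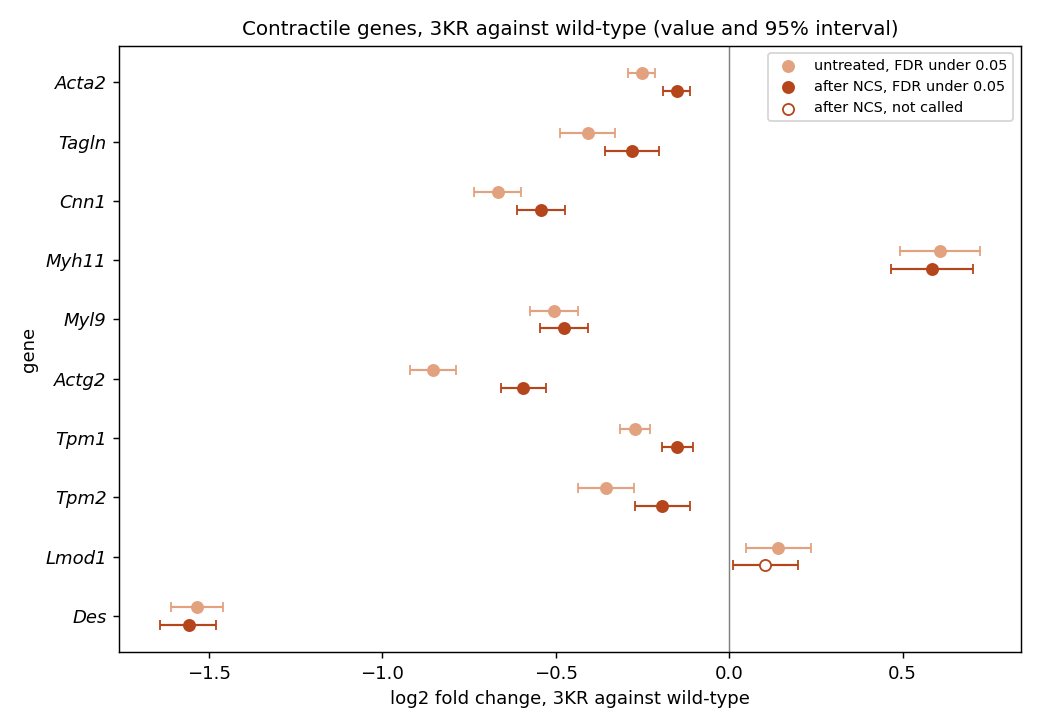
Log2 fold change of each contractile gene in 3KR against wild-type MEFs, untreated and after NCS; points are edgeR estimates, whiskers 95% intervals, and an open point is a value that did not pass an FDR of 0.05. Des lies at -1.53 and -1.56, Myh11 at 0.61 and 0.58, and the other 7 genes that fell lie between -0.85 and -0.15.

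NCS left most contractile genes of wild-type MEFs within a narrow range of their untreated level. Only Tpm1 (higher) and Cnn1 (lower) passed the test, 2 of 10 where 26.7% of all genes were called (14.3% higher, 12.4% lower). Untreated and treated samples did not overlap in 3 of the 10 genes, Acta2 being the other, as in 35.1% of all genes tested. Cnn1 fell from the untreated counts given above to 10520, 10311 and 10189.6, below every untreated sample, a log2 fold change of -0.16 ± 0.0325 (FDR 0.000485). For Tpm1 the counts after NCS were 73609, 73970.4 and 72461, above every untreated sample, a log2 fold change of 0.06 ± 0.0211 (FDR 0.0376). That value was close to the median of all genes of high abundance (mean log2 CPM above 8) in this comparison, 0.0552. The Tpm1 call was lost on leaving out untreated wild-type sample 1 or 2 (FDR 0.0716 and 0.0806) or wild-type NCS sample 1 or 2 (FDR 0.112 and 0.127). The 95% intervals of Acta2 (-0.0119 to 0.0659), Actg2 (-0.0985 to 0.0305) and Des (-0.0685 to 0.0769) bound the change these data allow.

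Same-numbered untreated and NCS-treated wild-type samples deviated together, most for number 3 (correlations 0.267, 0.234 and 0.468 for numbers 1, 2 and 3). Deviations from a group mean cancel out within the group, so the outlying samples numbered 3 also tie numbers 1 and 2 together. Unlike numbers were not compared, so pairing by number was not told apart from these outlying samples. A fit with the sample number as a block within each genotype is given with this limit. The labels do not say what the numbers mark. With the block, Myl9 was also called higher in wild-type MEFs (log2 fold change 0.07, FDR 0.0347), against an FDR of 0.143 without it. In place of the block, leaving out both wild-type samples numbered 3 gave 4 calls, with Acta2 (0.04, FDR 0.0162) and Myl9 (0.11, FDR 9.3e-06) higher beside Tpm1 and Cnn1. Leaving out wild-type NCS sample 3 alone gave 0.11 for Myl9 (FDR 0.00403).

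In 3KR MEFs, 6 contractile genes rose with NCS and 0 fell, where 15.8% of all genes rose and 15% fell (30.8% called in all). DESeq2 gave the same counts of 6 and 0, and the edgeR p-values of the other 4 genes were 0.239 or more before adjustment. The median log2 fold change of the 10 genes was 0.11, against -0.00079 for all genes and 0.0722 for genes of high abundance (mean log2 CPM above 8). The part of that shift of abundant genes in the values of the contractile genes was not tested. The same 6 genes were those whose untreated and treated samples did not overlap, as in 47.6% of all genes tested. Actg2 rose to 10839, 11265 and 11462, above every untreated 3KR sample and below every wild-type sample, a log2 fold change of 0.23 ± 0.0316 (FDR 5.98e-06). Tpm2 rose to 18455, 18315 and 20623 (log2 fold change 0.22 ± 0.0387, FDR 0.000135), with sample 3 standing highest. Tpm1 rose to 66600.3, 66188 and 65684 (0.18 ± 0.0212, FDR 3.92e-07).

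The most abundant member, Acta2, rose in 3KR MEFs to 149085, 149960 and 147229 (log2 fold change 0.13 ± 0.0188, FDR 1.16e-05). All 3 values lay above the untreated 3KR samples and below all wild-type samples. Tagln (0.12 ± 0.0379, FDR 0.0229) and Myl9 (0.10 ± 0.0333, FDR 0.031) also passed the test, but close to the threshold. The call for Tagln was lost on leaving out any 1 of the 6 samples compared (FDR 0.0542 to 0.0807). That for Myl9 was lost on leaving out any but untreated sample 2 (FDR 0.073 to 0.135). The log2 fold changes of Cnn1 (-0.04 ± 0.0331), Myh11 (-0.03 ± 0.0543), Lmod1 (0.0043 ± 0.045) and Des (-0.02 ± 0.0404) did not pass.

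**Figure D4:**
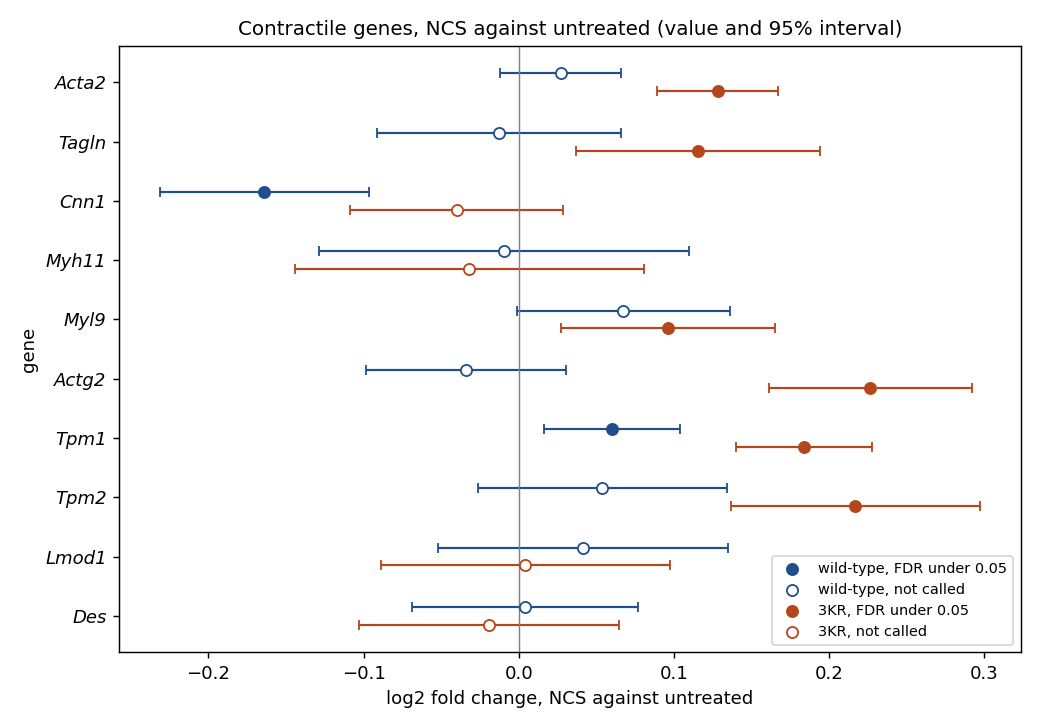
Log2 fold change of each contractile gene after NCS against untreated, in wild-type and in 3KR MEFs; points are edgeR estimates, whiskers 95% intervals, and an open point is a value that did not pass an FDR of 0.05. Actg2 lies at -0.03 in wild-type and 0.23 in 3KR MEFs, and Des lies near 0 in both.

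The NCS responses of the genotypes were compared directly with the interaction term of the same model, which uses all 12 samples and shares them with the comparisons above. Actg2, Tpm1 and Acta2 had a higher response in 3KR MEFs, 3 of 10 where 3.73% of all genes were called (1.86% in this direction and 1.87% in the other). The difference of responses was 0.26 ± 0.0443 (log2, SE) for Actg2 (FDR 0.000879), 0.12 ± 0.0299 for Tpm1 (FDR 0.0193) and 0.10 ± 0.0266 for Acta2 (FDR 0.0317). Actg2 kept its call on leaving out each of the 12 samples in turn (0.24 to 0.28).

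Acta2 lost the call on leaving out untreated wild-type sample 1 or any 1 of the 3KR samples, 7 of 12 samples in all (FDR 0.0568 to 0.0994). Tpm1 lost it on leaving out untreated 3KR sample 1 or 3 or 3KR NCS sample 1 (FDR 0.0543 to 0.0673). With the number block, 6 of the 10 genes had a higher response in 3KR MEFs, the added ones being Tagln (0.13, FDR 5.43e-05), Cnn1 (0.12, FDR 0.0238) and Tpm2 (0.16, FDR 0.00759), among 1379 genes called in place of 572. Same-numbered 3KR samples, which enter that fit as pairs too, showed no pairing (correlations of deviations 0.00102 to 0.0502). Without untreated wild-type sample 3 there were also 6 calls, and 6 without both wild-type samples numbered 3. For Des the difference of responses had a 95% interval from -0.134 to 0.0873 and for Myh11 from -0.186 to 0.142.

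Upstream of the contractile genes, the SRF, myocardin and YAP/TEAD regulators were examined as a list of 18 genes tested. In untreated MEFs 12 were lower and 2 higher in 3KR, where 23.6% of all genes were lower and 22.1% higher. The median log2 fold change of the 18 was -0.19. Srf itself was lower by a small amount (-0.18 ± 0.0494, FDR 0.00401), which became -0.09 (FDR 0.0299) without untreated wild-type sample 3. Its coactivator Mrtfa was lower as well (-0.20 ± 0.0388, FDR 0.000126), while Mrtfb (0.02 ± 0.0459, FDR 0.703) did not pass. Myocd, the myocardin coactivator typical of smooth muscle, was scarce, at 245 ± 14.8 normalised reads in untreated wild-type and 142 ± 7.90 in untreated 3KR MEFs (log2 fold change -0.79 ± 0.0988, FDR 5.19e-07). The lowest p-values in the list belonged to Hey1, a repressor downstream of Notch (higher, 1.45 ± 0.0626), Mef2a, a muscle transcription factor (lower, -0.93 ± 0.0375), and Elk3, a partner of SRF (lower, -0.35 ± 0.0304).

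With NCS, 7 of these 18 regulators rose and 2 fell in wild-type MEFs, and 8 rose and 1 fell in 3KR MEFs, where 14.3% and 12.4% of all genes rose and fell in wild-type and 15.8% and 15% in 3KR MEFs. Mef2a rose by 0.62 ± 0.0361 and 0.70 ± 0.0377 (log2), and Klf4, known to repress smooth muscle genes, by 0.47 ± 0.0367 and 0.57 ± 0.0373, in wild-type and 3KR MEFs respectively.

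Among 20 genes of TGF-beta signalling tested, 9 were lower and 6 higher in untreated 3KR MEFs, beside 23.6% and 22.1% of all genes. The median log2 fold change of the 20 was -0.08. Ccn2, a matricellular protein induced by TGF-beta and by YAP, was lower (-1.002 ± 0.0281, FDR 8.43e-19), as was Inhba, which encodes the activin A subunit (-1.07 ± 0.0383, FDR 7.77e-17). The coreceptor Tgfbr3 was higher (1.52 ± 0.059, FDR 3.78e-16). With NCS, Ccn2 rose in 3KR MEFs (0.29 ± 0.028) and its value in wild-type MEFs was 0.0056 ± 0.0278. Inhba rose in both, by 0.83 ± 0.0383 in 3KR and 0.27 ± 0.0375 in wild-type MEFs. Smad3, an effector of the pathway, rose in both as well (0.29 ± 0.0341 in 3KR and 0.37 ± 0.0346 in wild-type MEFs). It was higher in 3KR than in wild-type MEFs, untreated (0.35 ± 0.0347, FDR 1.43e-08) and after NCS (0.26 ± 0.0341, FDR 8.56e-07).

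Other smooth muscle genes moved in both directions. Of 24 tested, 12 were lower and 8 higher in untreated 3KR MEFs, beside 23.6% and 22.1% of all genes. The median log2 fold change of the 24 was -0.17. The caveolar coat gene Cav1 (0.63 ± 0.0314) and the amine oxidase gene Aoc3 (1.92 ± 0.105) were higher. Mylk, the kinase that phosphorylates the light chain encoded by Myl9, was higher in untreated 3KR MEFs (0.28 ± 0.0426) and fell with NCS in wild-type (-0.23 ± 0.0437) and 3KR MEFs (-0.40 ± 0.0432).

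Genes of the general actomyosin cytoskeleton were lower in untreated 3KR MEFs in 22 of 24 cases, where 23.6% of all genes were lower. The median log2 fold change of the 24 was -0.19. Cytoplasmic beta-actin, Actb, fell by 0.29 on the log2 scale (SE 0.0236, FDR 2.93e-10), Vcl, which anchors actin at adhesions, by 0.46 (SE 0.0277, FDR 2.04e-12) and the non-muscle calponin Cnn3 by 0.31 (SE 0.025, FDR 3.16e-10). With NCS, 14 of the 24 rose and 1 fell in 3KR MEFs, where 15.8% of all genes rose and 15% fell. In wild-type MEFs 3 rose and 2 fell, where 14.3% of all genes rose and 12.4% fell. Tpm3, a tropomyosin gene of non-muscle cells, rose by 0.17 ± 0.0327 in 3KR and 0.12 ± 0.0324 in wild-type MEFs, and the actin-severing gene Cfl1 by 0.16 ± 0.0274 and 0.10 ± 0.0273. In wild-type MEFs both calls were lost with only the samples compared (FDR 0.0551 for Tpm3 and 0.0782 for Cfl1), and that of Cfl1 without wild-type NCS sample 2 (FDR 0.0504). Among all genes of high abundance (mean log2 CPM above 8) the median log2 fold change was -0.06 in untreated 3KR against wild-type MEFs, 0.06 with NCS in wild-type MEFs and 0.07 with NCS in 3KR MEFs.

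Matrix genes, which myofibroblasts also express, were mostly higher in untreated 3KR MEFs. Of 17 tested, 11 were higher and 5 lower, where 22.1% of all genes were higher and 23.6% lower. The median log2 fold change of the 17 was 0.23. Postn, encoding periostin, was counted at 55485 ± 1635 in untreated wild-type and 189289 ± 762 in untreated 3KR MEFs (log2 fold change 1.77 ± 0.0226, FDR 5.22e-25). Tnc (tenascin C) was higher by 0.63 ± 0.0203 and Eln (elastin) by 0.995 ± 0.0353. With NCS, Eln fell in 3KR MEFs (-0.65 ± 0.0351) and its value in wild-type MEFs was -0.02 ± 0.0354. Sparc, an abundant collagen-binding protein, rose in wild-type MEFs (0.11 ± 0.0253), a call lost with only the samples compared (FDR 0.0716).

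**Figure D5:**
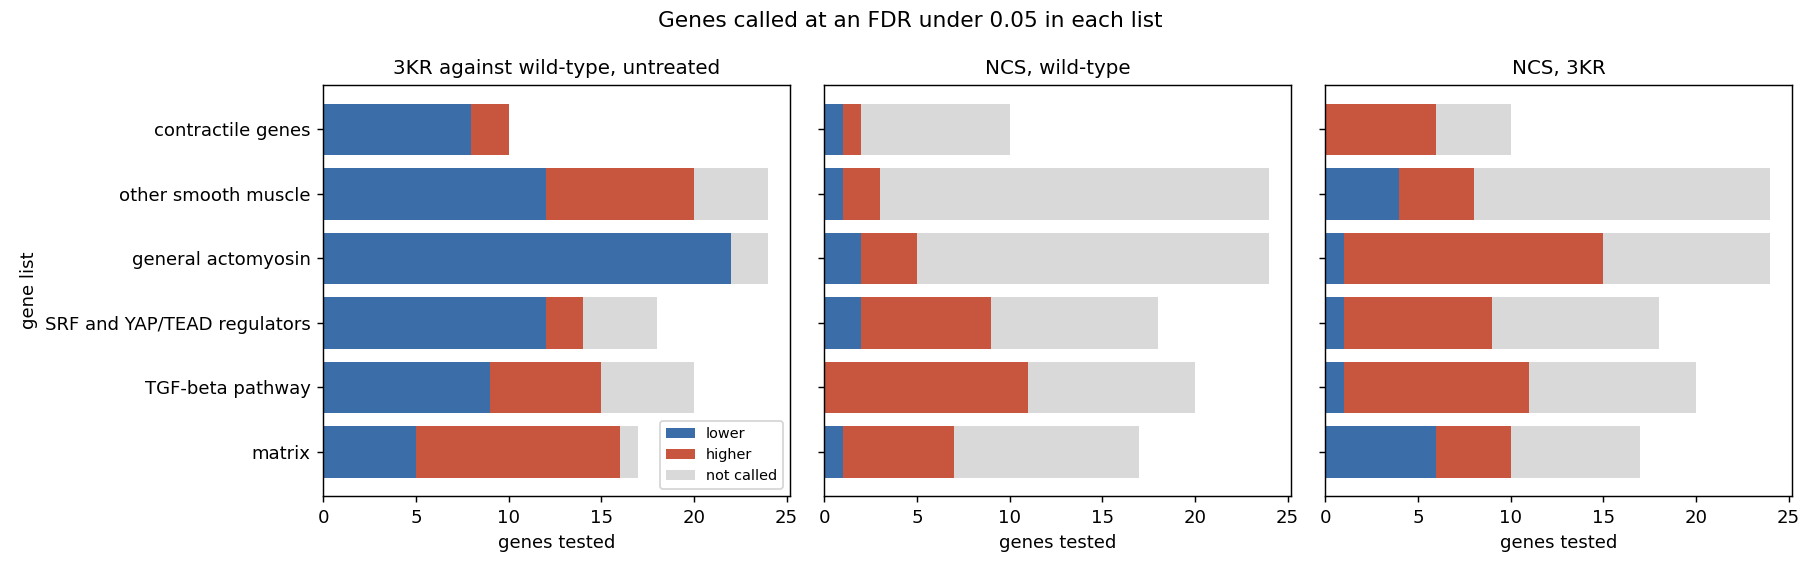
Number of genes tested in each list that were lower, higher or not called at an FDR under 0.05 (edgeR), for 3KR against wild-type untreated and for NCS in each genotype. In the left panel 8 of the 10 contractile and 22 of the 24 general actomyosin genes are lower, whereas 11 of the 17 matrix genes are higher.

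Likeness to Acta2 was measured with Pearson's r of log2 CPM over the 12 samples, which form separate clusters by genotype, so that any gene with a genotype difference tends to a high or low r. Among 11748 other genes with a mean log2 CPM of at least 1, 6.95% had an r above 0.9. The highest values belonged to Mcpt8 (a granule protease, 0.992), Fam198b (0.988), Cald1 (caldesmon, an actin- and myosin-binding protein of smooth muscle and fibroblasts, 0.987), Higd2a (0.987) and Phlda1 (0.987). Of the contractile genes, Tpm1 was the most like Acta2 (0.985) and Actg2 next (0.966), and Myh11 (-0.889) and Lmod1 (-0.679) were opposite. When each sample was taken as its deviation from its group mean, the r of Acta2 was 0.702 with Tpm1, 0.635 with Myl9, 0.431 with Tagln, 0.488 with Myh11, 0.354 with Actg2 and -0.251 with Tpm2. The 12 deviations share library depth and normalisation and are not independent of each other.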

How the data were processed

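RNA-seq libraries (stranded TruSeq mRNA kit, Illumina HiSeq) of 12 samples, 3 per group, were analysed. Per the labels, the authors used TopHat, HTSeq and DESeq with build mm9, versions not given. The deposited values were raw read counts per Ensembl gene, not normalised. Gene names, coordinates and exon lengths came from GENCODE M21 (GRCm38), in which 32919 of 37991 identifiers were found, and RPKM rests on these lengths.

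Counts were tested with edgeR 4.0.16 in R 4.3.3 (filterByExpr, TMM, 1 coefficient per group, quasi-likelihood F test, Benjamini-Hochberg adjustment over 15327 genes, threshold 0.05). Normalised read counts were divided by size factors from DESeq2 1.42.0, whose Wald test was an alternative. Scripts were tested on simulated data. The other alternatives were a replicate block, a fit to only the samples compared, DESeq2 size factors, leaving out each sample, no filter, and a minimum of 10 counts in all samples. Leaving out both wild-type samples numbered 3 was chosen after seeing the data. Deviations of same-numbered untreated and NCS samples correlated at 0.234 to 0.468 in wild-type and 0.00102 to 0.0502 in 3KR MEFs, and numbers across genotypes at -0.0305 to 0.0234. The likeness of same-numbered wild-type samples comes from the data alone, was highest for number 3 and was not compared with that of unlike numbers.

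The 10 genes and the lists were chosen with earlier results of these data known. Named in the text are all 10 genes, Srf, Mrtfa, Mrtfb, Myocd, the genes with the lowest p-values per list (3 in untreated 3KR against wild-type, 2 in NCS in wild-type), the 5 genes most like Acta2, Cdkn1a as a check of damage, and genes overlapping a member; 1 gene that this rule names is not reported here. Standing outside that rule, marker genes were named after their values were seen.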

Additional observations from a re-analysis of the deposited data

Results flagged for a closer look

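Of the contractile genes, Actg2 (0.26), Tpm1 (0.12) and Acta2 (0.10) had a response to NCS that differed between the genotypes by the interaction term (log2, 3KR minus wild-type), with a higher response in 3KR MEFs. In each of the 3, all NCS-treated 3KR samples lay above all untreated 3KR samples and below all wild-type samples. Among the named genes of the related lists, Inhba (0.56), Ccn2 (0.28) and Actb (0.12) also had a higher response in 3KR MEFs, and all 3 were lower in untreated 3KR than in wild-type MEFs. The same held for the damage check gene Cdkn1a (0.16, FDR 0.0189). Its call was lost on leaving out wild-type NCS sample 1, untreated 3KR sample 1 or 3KR NCS sample 1 or 3 (FDR 0.0548 to 0.0679). A lower response in 3KR MEFs was found for Tgfbr3 (-0.71), Eln (-0.63), Aoc3 (-0.55), Itga8 (-0.30), which encodes an integrin subunit, and Postn (-0.19), all of which were higher in untreated 3KR MEFs. The comparison of responses and the untreated genotype comparison share the untreated samples, so these directions are not independent. The FDR was 0.0437 for Actb and 0.0426 for Aoc3. The call of Actb was lost on leaving out wild-type NCS sample 1 or 2, any untreated 3KR sample or 3KR NCS sample 2 or 3, 7 of the 12 samples (0.09 to 0.14 over all 12). That of Aoc3 was lost on leaving out any but untreated wild-type sample 3, wild-type NCS sample 3 or 3KR NCS sample 2, that is for 9 of 12 samples (-0.64 to -0.50). By the DESeq2 Wald test neither passed (FDR 0.0518 and 0.0537).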

How the results depend on the processing

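The 8 lower and the Myh11 calls in 3KR against wild-type MEFs held under every alternative, untreated and after NCS. Members called in NCS-treated wild-type MEFs (2) were 1 with no filter, with at least 10 counts in every sample and with only the samples compared, 4 without both wild-type samples numbered 3, and 1 to 3 on leaving out 1 sample. For the difference of responses (3), counts were 5 with no filter, 6 with the replicate block by number within genotype, 6 without both samples numbered 3, and 1 to 6 on leaving out 1 sample. The replicate block changed no other count of members called than these and that of NCS in wild-type MEFs (3): within genotype 6 members were called in 3KR MEFs, and across genotypes 10 untreated and 9 after NCS.

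Sign changes occurred among values that did not pass the test either way: Lmod1 with NCS in 3KR MEFs was -0.0024 with no filter, Des with NCS in wild-type MEFs -0.0097 with at least 10 counts and -0.011 with only the samples compared, and without both samples numbered 3 Myh11 with NCS in wild-type MEFs was 0.0738 and the difference of responses of Myl9 -0.015. On leaving out 1 sample, the NCS response in wild-type MEFs ran from -0.0641 to 0.0360 for Tagln, -0.0139 to 0.0238 for Des and -0.0560 to 0.0417 for Myh11, that in 3KR MEFs from -0.0696 to 0.0055 for Myh11 and -0.0176 to 0.0201 for Lmod1, and the difference of responses from -0.0736 to 0.0241 for Myh11, -0.0694 to 0.0039 for Lmod1 and -0.0151 to 0.0540 for Myl9. The cause was not tested. Over all genes, the difference of responses was called for 572 genes, 1379 with the block, 1842 without both samples numbered 3 and 345 to 1159 on leaving out 1 sample. Counts for the 5 related lists moved by over 1.5 times in 30 and stayed within that in 60 alternatives for the difference of responses, in 11 and 54 for NCS in wild-type MEFs and in 2 and 63 for NCS in 3KR MEFs, and in no alternative for the genotype comparisons. Calls of the other named genes were kept in 1406 and lost in 61 alternatives.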
